A study of Mus musculus with 8 samples.

Results

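The 10 genes described here are stress genes of the mouse: 7 classical targets of the transcription factor p53 (Cdkn1a, Ccng1, Mdm2, Trp53inp1, Bbc3, Phlda3 and Sesn2) and the Gadd45 family (Gadd45a, Gadd45b and Gadd45g). They were chosen by name from 56980 gene identifiers because the study discussed DNA damage pathways in this tissue, and each symbol matched 1 identifier. RNA was sequenced from scraped jejunal mucosa, a mixture of cell types, of male mice. The floxed controls (FFA2 fl/fl) carried floxed alleles of the free fatty acid receptor FFA2, encoded by Ffar2, and no Cre. The Adipoq-F2-KO mice were their littermates, carried the same floxed alleles and in addition a Cre transgene driven by the adiponectin promoter, which is active in adipocytes. The deletion was therefore not directed at the cells that were sequenced. Both genotypes were housed together from birth on chow, were 12 weeks old when moved to a Western diet with 10% fructooligosaccharides (WD + FOS), housed at thermoneutrality and killed 2 weeks later. Each genotype is represented by 4 libraries, 1 per mouse, named floxed 1 to 4 and knockout 1 to 4.

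p53 is a transcription factor that is stabilised by DNA damage and other stresses and then raises transcription of genes for cell cycle arrest, DNA repair, metabolic control and apoptosis. One of its targets, Mdm2, encodes the ubiquitin ligase that returns p53 to a low level. Gadd45 proteins are small stress-inducible proteins that bind partners in the cell cycle and the p38 and JNK kinase pathways, and of the family Gadd45a is the member known as a p53 target. In the intestine p53 and its targets are best known from the crypt, where dividing progenitors respond to radiation and other genotoxic stress.

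Sequences upstream of the RefSeq start sites (mouse GRCm38.p6) are shown for the Gadd45 family, whose members are compared with each other below, and for Cdkn1a, the most abundant of the 10 genes. Each line holds the 150 bases before the start site, 5′ to 3′ on the strand of the gene, and capitals mark motif matches found by a search of both strands. In Gadd45a (chr6:67037408-67037557, minus strand) the capitals are a CCAAT box and then a p53 decamer. In Gadd45b (chr10:80929941-80930090, plus strand) they are 2 CCAAT boxes and a TATA box. In Gadd45g (chr13:51846525-51846674, plus strand) they are a C/EBP-ATF element on the opposite strand, a CCAAT box and a TATA box. In Cdkn1a (chr17:29090829-29090978, plus strand, the first listed start of the gene) they are 2 p53 decamers. The 250 bases before another listed start of Cdkn1a (chr17:29093519-29093768, not printed) held no match to any of the motifs searched.
Gadd45a: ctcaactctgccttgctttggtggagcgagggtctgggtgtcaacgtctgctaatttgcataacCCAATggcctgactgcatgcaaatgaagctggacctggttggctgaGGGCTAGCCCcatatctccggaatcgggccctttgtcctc
Gadd45b: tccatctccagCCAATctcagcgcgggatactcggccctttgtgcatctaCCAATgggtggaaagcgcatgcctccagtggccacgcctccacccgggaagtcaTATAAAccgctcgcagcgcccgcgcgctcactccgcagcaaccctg
Gadd45g: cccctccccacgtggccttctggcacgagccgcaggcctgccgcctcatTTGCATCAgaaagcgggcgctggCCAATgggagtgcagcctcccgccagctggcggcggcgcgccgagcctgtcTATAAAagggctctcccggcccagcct
Cdkn1a: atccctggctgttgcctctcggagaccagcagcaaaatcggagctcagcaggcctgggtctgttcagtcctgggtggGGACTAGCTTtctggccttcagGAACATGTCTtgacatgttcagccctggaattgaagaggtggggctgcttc

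Of the 10 genes, 9 were in the RefSeq promoter table (Trp53inp1 was not), and their windows from 250 bases before to 50 after the first listed start were searched. The p53 decamer, the 10-base unit that p53 binds, was found in 4 of the 9 (Cdkn1a, Mdm2, Ccng1 and Gadd45a), and 8.37% of the 27025 genes of the table held one in a window of the same length. The match in Mdm2 was GAACTTGCCT, beginning at position -186 from the start site, and that in Ccng1 was GGGCAAGCCT, beginning at -185. The TATA box (TATAAA) was found in 2 of the 9 genes, Gadd45b and Gadd45g, against 14.2% of all genes, and the CCAAT box (CCAAT) in 6, against 37.9%. The C/EBP-ATF element (TGATGNAA) was found in Gadd45g, against 4.06% of all genes. The AP-1 site (TGANTCA) and the cyclic AMP response element (TGACGTCA) were found in 0 of the 9, against 7.93% and 1.88% of all genes. None of the printed matches overlapped another. A match describes letters in these windows and is not evidence of binding, and a missing match says nothing of elements elsewhere, such as those in introns.

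The libraries held 6007654 to 21712776 counts, and floxed 3, knockout 3 and knockout 4 held under 10000000. Ffar2 gave 2 to 18 raw counts in the floxed controls and 3 to 13 in the Adipoq-F2-KO libraries, which does not test the deletion, since that was made in adipocytes. Villus enterocyte markers, which define this tissue, were measured for 15 of 15 genes and summed to between 912501 and 1022292 normalized counts in the floxed controls and between 905274 and 1017233 in the knockouts. Smooth muscle markers, of the muscle layer beneath a scraped mucosa, summed to between 3823 and 33624 in the floxed controls and between 4214 and 13719 in the knockouts. Of them 12 of 12 had a log2 fold change below 0 (median -0.91), against 51.5% of all genes. By DESeq2, 0 reached an unadjusted p below 0.05, against 3.03% of all genes. The highest sum was that of floxed 3. Floxed 1, 2 and 4 summed to 3823, 8785 and 4329, and knockouts 1 to 4 to 4214, 8461, 6453 and 13719. Adipocyte markers summed to between 10.1 and 583 against 11.1 and 266, and the 2 markers of distal small intestine to between 31.1 and 853 against 33.5 and 1357. The high values of those 2 lists were in floxed 3, knockout 3 and knockout 4. In bulk tissue, fewer cells of a type cannot be told apart from less RNA per cell.

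None of the 10 genes differed between the genotypes once p was adjusted over all genes tested. Of the 10, 9 passed the minimum of 10 counts in at least 4 libraries, and Phlda3 did not. By DESeq2's two-sided Wald test with Benjamini-Hochberg (BH) adjustment, 0 of the 9 had an adjusted p below 0.05, against 6 of 15986 genes (0.0375%), and the adjusted p of each of the 9 was 0.9998. At an unadjusted p below 0.05, DESeq2 called 1 of the 9, Gadd45g, against 3.03% of all genes, and edgeR's quasi-likelihood test called 0 of the 9, against 3.48%. After adjustment edgeR called 0 of the 9 as well, against 0.0125% of all genes. An exact permutation test of log2(normalized count + 1), two-sided, which cannot give a p below 0.0286 with 4 against 4 libraries, was run on 18 single genes, and for the 10 stress genes its p ranged from 0.200 (Trp53inp1) to 0.943 (Cdkn1a). The log2 fold change, Adipoq-F2-KO over floxed controls, was below 0 in 7 of the 9 genes, as it was in 51.5% of all genes. Its median was -0.12 over the 9 and -0.01 over all genes. In 0 of the 9 did the genotypes separate without overlap, against 2.12% of all genes (1.1% with the knockouts above and 1.02% with them below).

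**Figure D1:**
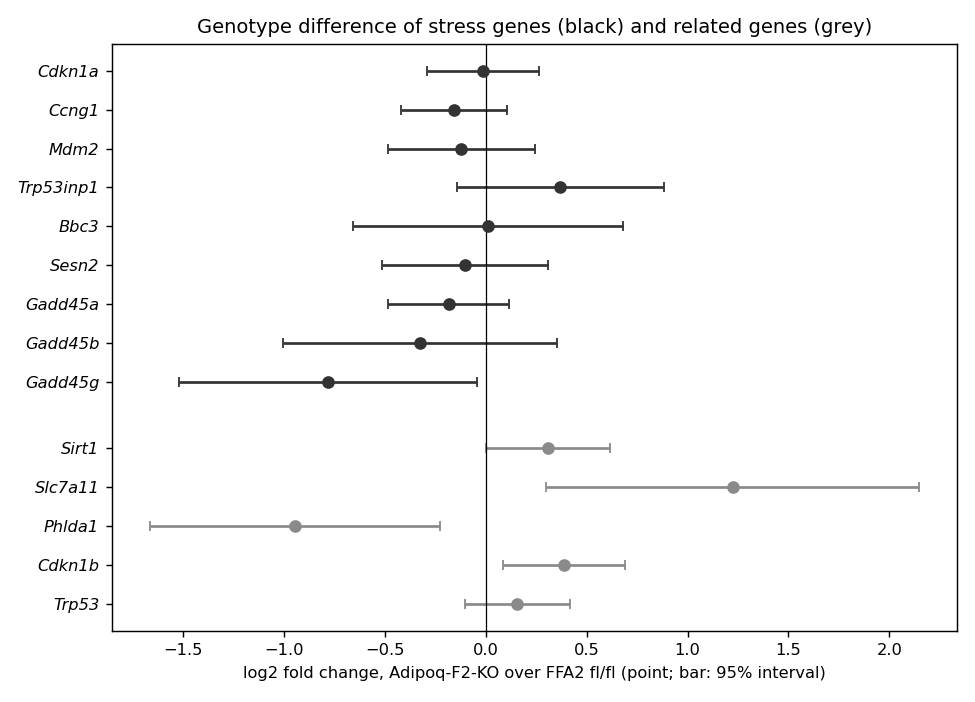
Log2 fold change on the x axis (Adipoq-F2-KO over FFA2 fl/fl, DESeq2) with its 95% interval as a bar, for the 9 tested stress genes in black and 5 related genes in grey. Among the black points the interval of Gadd45g (-1.52 to -0.04) does not reach 0, and the other 8 intervals cross it.

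Cdkn1a (ENSMUSG00000023067, chr17:29090976-29100727, plus strand) encodes p21, the cyclin-dependent kinase inhibitor that carries out p53-dependent cell cycle arrest. It gave 2521, 2454, 2189 and 2702 normalized counts in floxed 1 to 4 and 2729, 2862, 1978 and 2194 in knockout 1 to 4. The pair of highest values and the lowest value of the 8 were all in knockout libraries, so the floxed values lay within the knockout range. Floxed 3, knockout 3 and knockout 4, the libraries with under 10000000 counts, held the lowest values. The means were 2467 ± 212 (SD, n = 4) and 2441 ± 422 (SD, n = 4). On the log2 scale the fold change was -0.01 (SE 0.14) and its 95% interval ran from -0.29 to 0.26. In the 5 libraries with at least 10000000 counts it was 0.127. In its exons Cdkn1a overlapped an antisense gene, AC167363.2, over 273 bases.

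Ccng1 (ENSMUSG00000020326, chr11:40748552-40755311, minus strand) encodes cyclin G1, a p53 target that takes part in the control of Mdm2. Its normalized counts were 600, 609, 778 and 538 in the floxed controls and 577, 520, 583 and 572 in the knockouts. The knockout values were close to one another, with a coefficient of variation of 5.12% against 16.3% in the floxed controls, and 3 of the 4 lay inside the floxed range. The mean was 631 ± 103 in the floxed controls and 563 ± 28.8 in the knockouts (SD, n = 4 each), a log2 fold change of -0.16 (95% interval -0.42 to 0.10).

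Mdm2 (ENSMUSG00000020184, chr10:117688875-117710758, minus strand) closes the feedback loop on p53. It gave 1115, 792, 887 and 862 normalized counts in the floxed controls and 1138, 675, 757 and 791 in the knockouts. Knockout 1 was above every floxed library, and knockouts 2 and 3 were below all of them. Knockout 4 (791.5) was level with the lowest floxed library, floxed 2 (791.7). The means were 914 ± 140 and 840 ± 204 (SD, n = 4 each). This was a log2 fold change of -0.12 (95% interval -0.48 to 0.25). Leaving out 1 library gave -0.30 without knockout 1, -0.03 without knockout 2 and -0.01 without floxed 1.

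**Figure D2:**
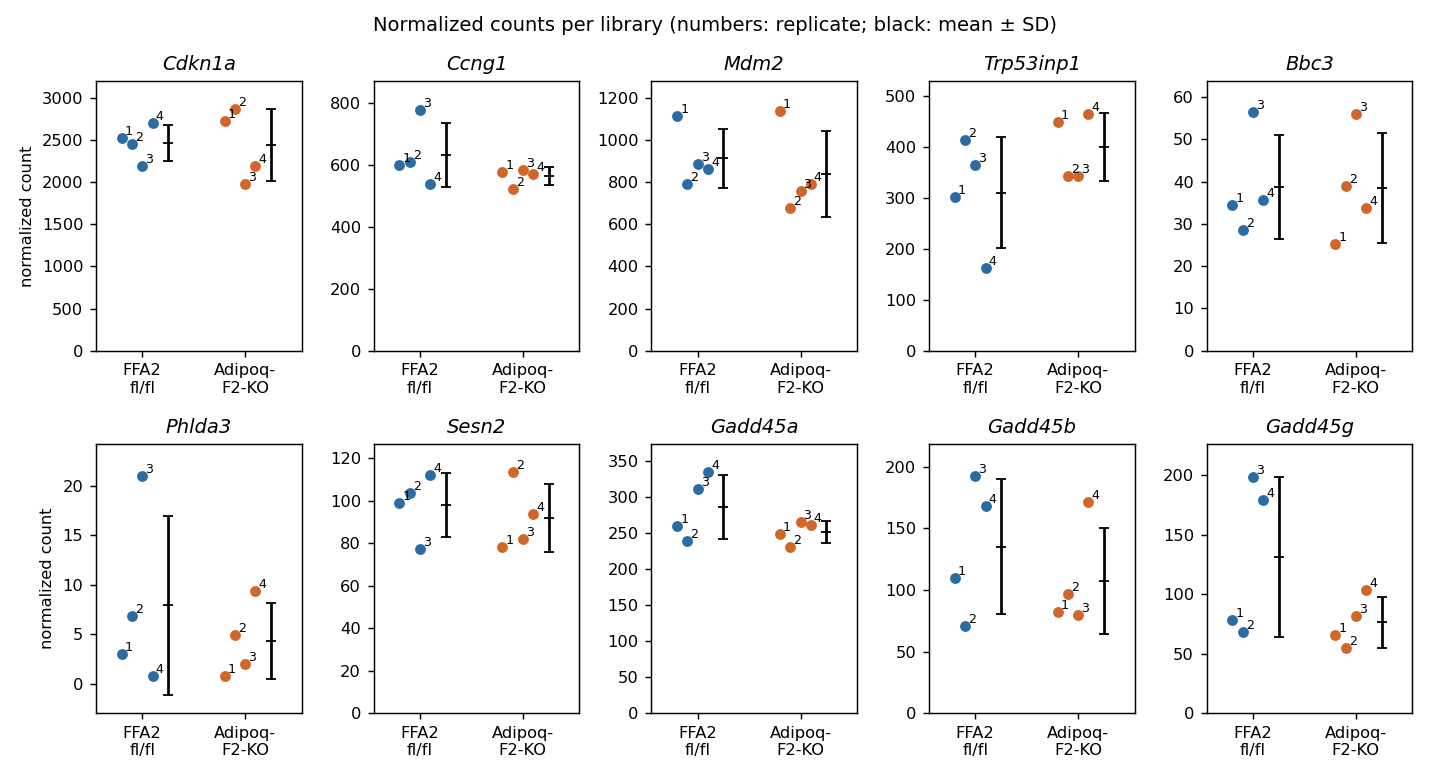
Normalized counts (y axis, linear) of the 10 stress genes in each FFA2 fl/fl (blue) and Adipoq-F2-KO (orange) library, with the replicate number beside each point and the mean ± SD (n = 4) in black. The genotypes overlap in every panel, and floxed 3 and floxed 4 are the highest points for Gadd45g at 199 and 180.

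Of the genes for cell death, Trp53inp1 (ENSMUSG00000028211, chr4:11156431-11174379, plus strand) encodes a nuclear and autophagy-associated protein that acts with p53. It was one of 2 genes of the 9 with a fold change above 0. Its normalized counts were 301, 413, 364 and 163 in the floxed controls and 450, 344, 342 and 464 in the knockouts. Knockout 1 and knockout 4 were above all floxed libraries, and floxed 4 was the lowest of the 8. The mean was 310 ± 109 against 400 ± 66.2 (SD, n = 4 each), a log2 fold change of 0.37 (SE 0.26, 95% interval -0.14 to 0.88). Without floxed 4 that log2 fold change was 0.15, and without floxed 2 it was 0.55.

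Bbc3 (ENSMUSG00000002083, chr7:16308393-16318205, plus strand) encodes PUMA, the BH3-only protein through which p53 triggers apoptosis. It was scarce, with 34.5, 28.5, 56.5 and 35.6 normalized counts in the floxed controls and 25.3, 39.1, 56.1 and 33.8 in the knockouts. Library 3 of each genotype was the highest and the ranges were nearly the same. The means were 38.8 ± 12.2 and 38.6 ± 12.98 (SD, n = 4 each), with a log2 fold change of 0.01. The 95% interval, from -0.66 to 0.68, takes in changes of that size in either direction.

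Phlda3 (ENSMUSG00000041801, chr1:135766119-135769136, plus strand) encodes a pleckstrin homology protein that holds back Akt and is a p53 target. It had too few counts for the test, with 5, 13, 10 and 1 raw counts in the floxed controls and 1, 8, 1 and 5 in the knockouts. After scaling for depth these were 3.03, 6.85, 20.9 and 0.774 normalized counts in the floxed controls and 0.789, 4.96, 2.00 and 9.40 in the knockouts. Floxed 3 was the highest, and 3 libraries held a single read. In a fit of every gene with at least 1 count, its log2 fold change was -0.81 with a 95% interval of -2.79 to 1.17.

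Sesn2 (ENSMUSG00000028893, chr4:132492032-132510501, minus strand) encodes sestrin 2, a stress-inducible leucine sensor that lowers mTORC1 activity and is also a target of the integrated stress response. Its normalized counts were 98.7, 103.8, 77.4 and 112.2 in the floxed controls and 78.2, 113.5, 82.1 and 94.0 in the knockouts. The ranges nearly coincided. The mean was 98.0 ± 14.9 against 91.9 ± 15.9 (SD, n = 4 each), with a log2 fold change of -0.10 (95% interval -0.51 to 0.31).

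All 3 Gadd45 genes had lower means in the knockouts, and the floxed controls were split between a low and a high pair of libraries. Gadd45a (ENSMUSG00000036390, chr6:67035096-67037457, minus strand) gave 260, 239, 312 and 335 normalized counts in the floxed controls and 249, 231, 266 and 261 in the knockouts. Floxed 3 and floxed 4 were above all 4 knockouts, while floxed 1 and floxed 2 lay among them. The mean was 286 ± 44.6 against 252 ± 15.6 (SD, n = 4 each), with a log2 fold change of -0.18 (95% interval -0.49 to 0.12). Gadd45a shared 337 bases of exon with an antisense gene, E230016M11Rik.

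Gadd45b (ENSMUSG00000015312, chr10:80930073-80932204, plus strand), the member known for its induction by NF-κB and TGF-β, gave 110, 71.2, 192 and 168 normalized counts in the floxed controls. The knockouts gave 82.1, 96.7, 80.1 and 171. Here knockout 4 stood with floxed 3 and floxed 4 at the high level, and the other 5 libraries were between 71.2 and 110. The mean was 135 ± 55.1 against 107 ± 43.0 (SD, n = 4 each), a log2 fold change of -0.33 (SE 0.35, 95% interval -1.01 to 0.35). It was -0.12 without floxed 3, -0.54 without floxed 2 and -0.62 without knockout 4.

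Gadd45g (ENSMUSG00000021453, chr13:51846678-51848468, plus strand), known as a gene of differentiating cells and of cytokine responses, had the lowest fold change of the 9. Its normalized counts were 78.8, 68.0, 199 and 180 in the floxed controls and 65.5, 54.6, 82.1 and 103 in the knockouts. Floxed 3 and floxed 4 were far above the other 6 libraries, knockout 1 and knockout 2 were below every floxed library, and knockout 3 and knockout 4 lay between. The mean was 131 ± 67.4 against 76.4 ± 21.3 (SD, n = 4 each), a fold of 0.582. In log2 units this was -0.78 (SE 0.38), and the 95% interval from the DESeq2 model was -1.52 to -0.04. The unadjusted DESeq2 p was 0.0377, that of edgeR's quasi-likelihood test 0.0612 and that of the exact permutation test 0.257, and the DESeq2 p adjusted over all genes was 0.9998.

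The Gadd45g difference was smallest when one of the high floxed libraries was left out. Without floxed 3 its log2 fold change was -0.52, and without floxed 4 it was -0.57, both with an unadjusted DESeq2 p above 0.05. Without floxed 2, one of the low libraries, it was -1.005 (DESeq2 adjusted p = 0.642). Without knockout 1, 2 or 3 it was -0.71, -0.64 and -0.82, and the unadjusted DESeq2 p was above 0.05 in each. Over 14 alternatives it was below 0 in 14 and reached an unadjusted p below 0.05 in 7. A list score is the mean over its genes of log2(normalized count + 1), centred on the 8 libraries. The smooth muscle score was the highest of 8 in floxed 3 (3.15) and the lowest in floxed 4 (-2.43), and the score of immediate early genes, which respond to handling and growth signals, was likewise the highest in floxed 3 (0.72) and the lowest in floxed 4 (-0.55).

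**Figure D3:**
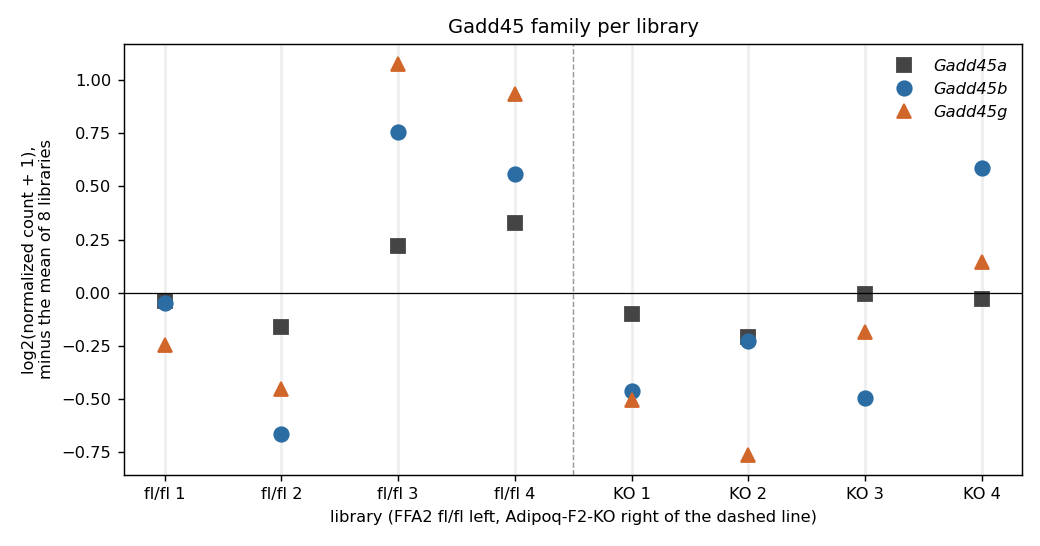
Each point is log2(normalized count + 1) of a Gadd45 gene in 1 library (x axis) minus the mean of that gene over the 8 libraries (y axis, log2 units), with FFA2 fl/fl left and Adipoq-F2-KO right of the dashed line. All 3 genes are above their means in floxed 3 and floxed 4 and below them in floxed 1, floxed 2, knockout 1, knockout 2 and knockout 3, and in knockout 4 Gadd45b and Gadd45g are above and Gadd45a is below.

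The 3 Gadd45 genes lie on different chromosomes. Of their 3 pairs, 1 had levels correlated over the 8 libraries at an adjusted p below 0.05. Between Gadd45a and Gadd45g Pearson's r was 0.956 (exact permutation p = 0.00102, BH-adjusted over the 45 pairs of the 10 genes 0.0458) and Spearman's rho was 0.929 (exact permutation p = 0.00223, adjusted 0.100). The rank correlation did not pass the adjustment. Without floxed 3 and floxed 4, the libraries farthest from the median, r was 0.848, and over the 5 libraries with at least 10000000 counts it was 0.991. Between Gadd45b and Gadd45g r was 0.846 (exact permutation p = 0.00809, adjusted 0.182) and rho was 0.690 (exact permutation p = 0.0694, adjusted 0.730), and r was 0.813 without knockout 4 and floxed 3. Between Gadd45a and Gadd45b r was 0.746 (exact permutation p = 0.0337, adjusted 0.479) and rho was 0.571 (exact permutation p = 0.151, adjusted 0.730), and r was 0.376 without both floxed 3 and floxed 4. With 1 library left out that r was 0.657 to 0.859, and over the 5 deeper libraries, which include floxed 4, it was 0.891. When 1 library was left out, r of Gadd45a and Gadd45g ranged from 0.944 to 0.968, and its adjusted p was above 0.05 each time with the 7 remaining libraries.

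Gadd45a and Gadd45g, the pair with the highest r of the 3, both hold a CCAAT box in the printed windows. Gadd45a also holds a p53 decamer and no TATA box, and Gadd45g a TATA box, a C/EBP-ATF element and no p53 decamer. A relation of these motifs to the correlation was not tested. No pair of a Gadd45 gene and one of the other 7 genes passed the adjustment, with 0.479 as the smallest adjusted p. The largest of these r in size was that of Trp53inp1 and Gadd45a, -0.682 (exact permutation p = 0.0639, adjusted 0.479), with rho of -0.381 (p = 0.360). It was -0.912 over the 5 deeper libraries and -0.193 without knockout 4 and floxed 4. For Cdkn1a and Gadd45a, r was -0.200 (exact permutation p = 0.629) and rho -0.524 (p = 0.197). For Cdkn1a and Gadd45g, r was -0.307 (exact permutation p = 0.446) and rho -0.643 (p = 0.0962).

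The smooth muscle score was set against each of the 10 genes because its markers spanned so wide a range among the libraries. It was related to Phlda3 alone at an adjusted p below 0.05, with r of 0.903 (exact permutation p = 0.00313, BH-adjusted over 10 genes 0.0313) and rho of 0.929 (p = 0.00223, exact permutation, adjusted 0.0223). Without floxed 3 and floxed 4 r was 0.769, and over the 5 deeper libraries it was 0.811. This relation rests on 1 to 13 raw counts per library, and its adjusted p was above 0.05 when any of 6 libraries was left out (floxed 2, 3 or 4, knockout 1, 2 or 4). For the other 9 genes the adjusted p of r was at least 0.424, and for the Gadd45 genes r was -0.07 with Gadd45a, 0.27 with Gadd45b and 0.19 with Gadd45g. With the smooth muscle score as a covariate, the log2 fold change of Gadd45g was -0.81.

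Of 22 proliferation genes, 19 had a log2 fold change above 0 (median 0.21), and 5 reached an unadjusted DESeq2 p below 0.05 in that direction, against 1.65% of all genes. No gene of the list passed the adjusted threshold, the smallest adjusted p being 0.742. The proliferation score was between -0.12 and -0.07 in the floxed controls and between 0.01 and 0.15 in the knockouts. Among the immediate early genes 11 of 13 had a log2 fold change below 0 (median -0.40), and 2 reached an unadjusted p below 0.05, against 1.38% of all genes in that direction. Plasma and B cell markers had a median log2 fold change of 0.87 over 7 genes and macrophage markers 0.54 over 8, with 0 at an unadjusted p below 0.05 in both lists. T and intraepithelial lymphocyte markers (0.10) and crypt markers (-0.01) had medians nearer 0. Neither the proliferation nor the immediate early score was related to any of the 10 genes at an adjusted p below 0.05. The largest r was that of Ccng1 with the immediate early score, 0.810 (exact permutation p = 0.0193, BH-adjusted over 10 genes 0.193), and it fell to 0.227 without floxed 3 and floxed 4. Beyond these correlations, the part of these lists in the results was not tested.

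In level, Cdkn1a stood clear of the other 9 genes. Per kilobase of exon, its normalized count averaged 691 over the 8 libraries, with a range of 557 to 805. Mdm2 followed at 173 (133 to 224), Ccng1 at 170 (148 to 222) and Gadd45a at 153 (131 to 190), and those ranges overlapped. Gadd45g at 88.5 (46.5 to 169), Gadd45b at 76.4 (44.8 to 121) and Trp53inp1 at 54.8 (25.1 to 71.7) formed the next overlapping step. Sesn2 at 27.3 (22.3 to 32.7), Bbc3 at 18.2 (11.9 to 26.6) and Phlda3 at 3.91 (0.496 to 13.4) were the lowest. Of neighbours in this order, only Cdkn1a and Mdm2 had ranges over the 8 libraries that did not overlap. Cdkn1a, the effector of arrest, was above Bbc3, an effector of apoptosis, in every library of both genotypes, and its level was 694 ± 59.8 per kilobase in the floxed controls and 687 ± 119 in the knockouts (SD, n = 4 each).

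The spread over the 8 libraries includes counting error, which is larger for scarce genes such as Bbc3, with 18 to 63 raw counts, and was not separated from differences between mice. The highest of the 8 libraries was 3.64 times the lowest for Gadd45g, 2.86 times for Trp53inp1, 2.70 times for Gadd45b and 2.24 times for Bbc3. For Mdm2 this ratio was 1.69, and for Cdkn1a, Ccng1, Gadd45a and Sesn2 it lay between 1.447 and 1.495. For Phlda3 no ratio is given, since its raw counts were 1 to 13.

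Other p53 targets were counted to see whether the 9 genes stood for a wider set. Of 42 matched, 35 were tested and the other 7 had too few counts. The log2 fold change was above 0 in 15 and below 0 in 20, with a median of -0.10 and a range of -0.53 to 0.47. By DESeq2, 0 reached an adjusted p below 0.05 and 0 an unadjusted p below 0.05, against 0.0375% and 3.03% of all genes, and by edgeR 0 reached an unadjusted p below 0.05 too. The ends of the range were Plk3, a stress kinase, at -0.53 (exact permutation p = 0.171) and Pmaip1, which encodes the apoptosis protein NOXA, at 0.47 (exact permutation p = 0.343), both named after their values were seen. Also chosen in this way, the apoptosis genes Bax and Fas had log2 fold changes of 0.07 and 0.03. In 1 of the 35, the DNA repair gene Ddb2, all 4 knockouts were below all 4 floxed controls, against 1.02% of all genes. It is named for that pattern, so no test of it is given beyond the DESeq2 adjusted p of 0.9998. Ddb2 shares 652 bases of exon with Acp2 on the opposite strand.

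**Figure D4:**
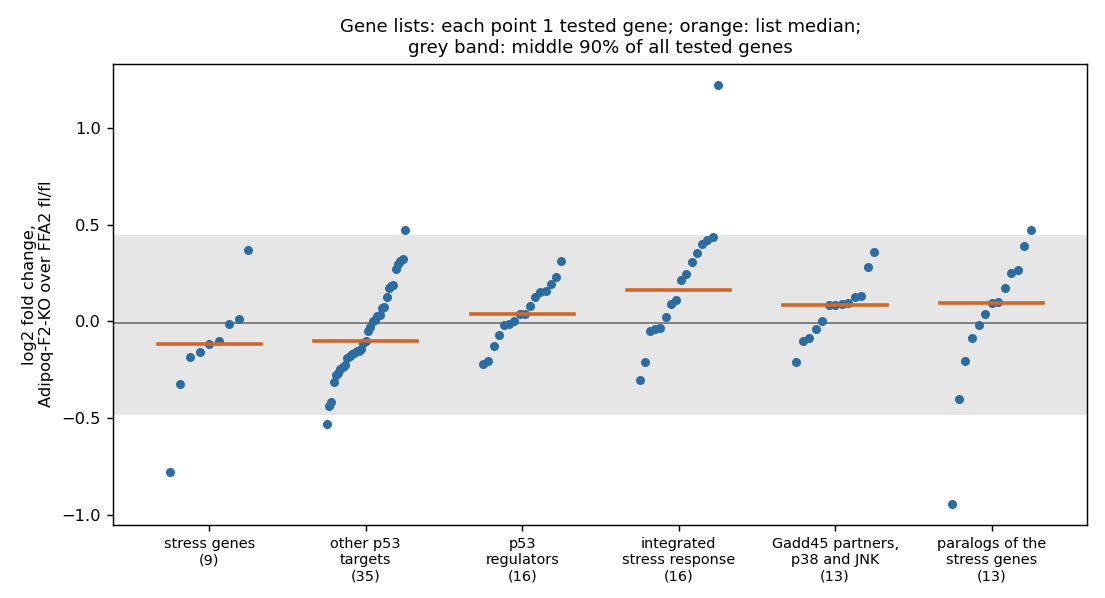
Log2 fold change (y axis, Adipoq-F2-KO over FFA2 fl/fl) of each tested gene in 6 gene lists (x axis, number of genes in brackets), with the list median in orange and the middle 90% of all tested genes as a grey band. The list medians lie between -0.12 and 0.16, and the points outside the band include Gadd45g (-0.78), Slc7a11 (1.22) and Phlda1 (-0.94).

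Trp53 itself, the gene of p53, gave 203, 180, 192 and 211 normalized counts in the floxed controls and 204, 230, 214 and 229 in the knockouts. Knockouts 2, 3 and 4 were above every floxed library and knockout 1 was among them. The mean was 197 ± 13.4 against 220 ± 12.4 (SD, n = 4 each), a log2 fold change of 0.16 with a 95% interval of -0.10 to 0.42 (exact permutation p = 0.0571, DESeq2 adjusted p = 0.9998). Since p53 is controlled mainly through its protein, this level says little of its activity. Of 16 tested p53 regulators, 10 had a log2 fold change above 0 and 6 below it (median 0.04). In that list 1 gene of 16 reached an unadjusted p below 0.05, against 3.03% of all genes, and this was Sirt1, a deacetylase that acts on p53. Its mean was 352 ± 50.8 in the floxed controls and 435 ± 57.2 in the knockouts (SD, n = 4 each), and knockouts 1, 2 and 4 were above every floxed library. Sirt1 had a log2 fold change of 0.31 (SE 0.16, DESeq2 adjusted p = 0.9998, exact permutation p = 0.0571), and its unadjusted p was below 0.05 in 3 of 14 alternatives (the replicate block, without floxed 1 and without knockout 3) and above it with edgeR, with TMM factors and in the deeper libraries.

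The integrated stress response, the ATF4 programme that shares Sesn2 with the p53 targets, had 16 tested genes, 11 with a log2 fold change above 0 and 5 below it (median 0.16). Slc7a11, the cystine transporter subunit that supplies glutathione synthesis, was the 1 gene of 16 at an unadjusted p below 0.05, against 3.03% of all genes. It was scarce, with 10.9, 14.8, 16.7 and 6.97 normalized counts in the floxed controls and 12.6, 30.4, 38.04 and 33.8 in the knockouts. Knockouts 2, 3 and 4 were above every floxed library and knockout 1 was among them. Its log2 fold change was 1.22 (SE 0.47, DESeq2 adjusted p = 0.9998, exact permutation p = 0.0857). In the 5 deeper libraries it was 0.98 and the unadjusted p was above 0.05, and in the other 13 of 14 alternatives that p was below 0.05.

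Of the partners of Gadd45 proteins and the genes of the p38 and JNK pathways, 13 of 13 were tested, 9 with a log2 fold change above 0 and 4 below it (median 0.09), and DESeq2 called 0 at an unadjusted p below 0.05, against 3.03% of all genes. Of all genes, 51.5% had a log2 fold change below 0. Paralogs of the 10 genes were the last list, with 13 of 16 tested, 8 above 0 and 5 below it (median 0.10). At an unadjusted p below 0.05 there was 1 of 13 in each direction, against 1.65% of all genes higher and 1.38% lower. Phlda1, the paralog of Phlda3, gave 138, 40.1, 98.3 and 94.4 normalized counts in the floxed controls and 52.1, 42.2, 38.04 and 60.2 in the knockouts. Floxed 2 lay among the knockouts, and the other 3 floxed libraries were above all of them. The log2 fold change of Phlda1 was -0.94 (SE 0.37, DESeq2 adjusted p = 0.9998, exact permutation p = 0.114), and without floxed 2 it was -1.21 with an adjusted DESeq2 p of 0.0310. That was the single alternative of 14 with an adjusted p below 0.05. Without floxed 1 it was -0.67, and there and in the 5 deeper libraries (-0.94) the unadjusted DESeq2 p was above 0.05 as well.

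Cdkn1b, the paralog of Cdkn1a that encodes the kinase inhibitor p27, was the other. Its mean was 552 ± 90.3 normalized counts in the floxed controls and 717 ± 98.9 in the knockouts (SD, n = 4 each), and knockout 1 and knockout 4 were above every floxed library. Cdkn1b had a log2 fold change of 0.39 (SE 0.15, DESeq2 adjusted p = 0.9998, exact permutation p = 0.0857). Without knockout 1 (0.29) and without floxed 2 (0.32) its unadjusted p was above 0.05. For its paralog Cdkn1a the interval was -0.29 to 0.26, and the difference between the paralogs was not tested.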

How the data were processed

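Jejunal mucosa RNA from 8 mice was made into poly-A selected, stranded libraries and sequenced as single-end reads of 75 bp. The deposited values are raw read counts per Ensembl gene, made by the authors with Trimmomatic, STAR and featureCounts. The submitters' processing notes name GRCm38 (mm10) as the build and DESeq2 as a tool, while versions, annotation release and the strand setting of counting are not given in the sources used here, so reads of a gene and of an overlapping gene on the other strand may not be separated. Symbols, exon lengths and coordinates came from GENCODE M21 on GRCm38, and promoter sequences from RefSeq on GRCm38.p6. Ddit3, whose symbol has several identifiers, was left out.

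Groups and replicate numbers came from sample titles. A gene was tested if 4 or more libraries gave it 10 or more counts, which 15986 of the 32652 genes with any count did. The study's own tool, DESeq2 (version 1.42.0, R 4.3.3), was used with genotype as the only term, size factors, two-sided Wald tests and BH adjustment, which it left missing for 8 genes. Normalized counts are counts divided by the size factor. Intervals are at the 95% level. edgeR 4.0.16 was an alternative. The other alternatives were TMM factors, no filter on low counts, a replicate block, the smooth muscle score as a covariate, the 5 libraries with at least 10000000 counts, and leaving out each library. Scripts were tested on simulated data. Ranks and the exact permutation tests of single genes were computed with scipy 1.17.1. Correlations were computed on log2(normalized count + 1) with numpy 2.4.6 and two-sided exact permutation p over all orders of the libraries, which are 40320 for 8 libraries. Those among the 10 genes and with the proliferation and immediate early scores were chosen after seeing the data, and so were the alternatives for the Gadd45 pairs and the exact permutation tests of 18 single genes.

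The 10 genes and all lists were chosen with earlier results of these data known. Named besides the 10 were Trp53 and, per list of related genes, up to 5 with the smallest unadjusted p below 0.05. Among the other p53 targets no gene met that rule, and Plk3, Pmaip1, Bax, Fas and Ddb2, and those named under alternatives, were chosen after their values were seen. Among 12 pairs of libraries of one genotype, a chi-square statistic over genes was 5.04 to 56.6 per gene, so none of these pairs differed by sampling noise alone. Pairs across genotypes were not compared. Errors reflect counting and the spread between mice, and reads carried no molecular identifiers.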

Additional observations from a re-analysis of the deposited data

How the results depend on the processing

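None of the 9 tested genes passed an adjusted p below 0.05 in any of 14 alternatives. The count of all genes that did so was 6, and it was 2 with edgeR, 3 without the filter on low counts, 11 with the replicate block, 81 in the 5 deeper libraries and 1 to 108 when 1 library was left out (108 without floxed 3, 18 without floxed 2). Of the 9, 1 had an unadjusted p below 0.05, and the count was 0 with edgeR, 0 in the deeper libraries and 0 to 2 when 1 library was left out (2, Gadd45g and Trp53inp1, without floxed 2). The share of all genes with an unadjusted p below 0.05 was 3.03%, and it was 3.48% with edgeR, 2.71% with the replicate block, 5.7% in the deeper libraries and 1.78% (without floxed 4) to 8.29% (without floxed 3, where 0 of the 9 were called) when 1 library was left out. Of the other p53 targets 0 did, against 2 with the replicate block (Btg2 and Plk3), 4 in the deeper libraries (Apaf1, Ercc5, Plk2 and Sesn1) and 0 to 3 when 1 library was left out (3 without floxed 3), counts to be read against those shares. Genes related to the smooth muscle score numbered 1, and 0 to 1 when 1 library was left out. The log2 fold changes nearest 0 changed sign, that of Bbc3 to -0.0112 with the replicate block, -0.0363 with the smooth muscle covariate, -0.0181 in the deeper libraries and -0.189 to 0.199 when 1 library was left out, and that of Cdkn1a to 0.00674 with the covariate, 0.127 in the deeper libraries and -0.101 to 0.0743 when 1 library was left out. The other 7 genes kept their direction in 14 of 14 alternatives, but leaving out 1 library moved Ccng1 between -0.23 (without floxed 4) and -0.05 (floxed 3), Mdm2 between -0.30 (knockout 1) and -0.01 (floxed 1), Sesn2 between -0.25 (knockout 2) and -0.02 (knockout 1), Gadd45a between -0.27 (floxed 2) and -0.09 (floxed 4), Gadd45b between -0.62 (knockout 4) and -0.12 (floxed 3), Gadd45g between -1.005 (floxed 2) and -0.52 (floxed 3) and Trp53inp1 between 0.15 (floxed 4) and 0.55 (floxed 2), and the causes of the moves were not tested.

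Replicate numbers were not used as pairs in the main fit. The deviations of same-numbered libraries from their group means correlated at 0.54, 0.29, 0.01 and -0.42. Libraries of different numbers were not compared in this way, so these values cannot decide whether the samples were paired. The correlation of Gadd45a and Gadd45g had an adjusted p above 0.05 in 8 of 8 fits that left out 1 library. At this depth Phlda3 and 7 of the 42 other p53 targets had too few counts to be tested.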
